A study of Mus musculus with 7 samples.

Results

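The 5 C/EBP genes Cebpa, Cebpb, Cebpd, Cebpe and Cebpg were examined with the chromatin around them. Every open chromatin region (OCR) that overlapped the gene body or the 100 kb on either side of it was taken, whatever its intensity. This gave 117 OCRs out of 144931 in the whole data set. The data are peak lists from bulk ATAC-seq, in which the Tn5 transposase cuts and tags accessible DNA, of 7 libraries of HPC7, a mouse hematopoietic progenitor cell line derived from embryonic stem cells and kept in culture with stem cell factor. All 7 libraries carry the same label, with no treatment or genotype, so there is no comparison between conditions, and they are named HPC7-1, HPC7-2 and HPC7-4 to HPC7-8 after their replicate numbers. The study's text describes them as separate culture batches of 1 line, a model without the other cells of the marrow.

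C/EBP proteins are basic leucine zipper transcription factors that bind DNA as homodimers or as heterodimers within the family and with other leucine zipper proteins. In blood formation, C/EBPα is required for the step from early progenitors to granulocyte and monocyte progenitors, and C/EBPε for the late maturation of granulocytes. C/EBPβ takes part in emergency granulopoiesis and in macrophages, C/EBPδ is induced in inflammation, and C/EBPγ lacks the activation domain of its relatives and acts largely as a partner. An enhancer about 37 kb downstream of mouse Cebpa and one about 6 kb downstream of mouse Cebpe are known. Their positions were used to fix the 2 comparisons between a promoter and a distal OCR, with earlier results of these data already known.

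Intensity is given as fold enrichment, the reads at the summit of a peak over the background of its library, and as the percentile of that fold enrichment among all peaks of the same library, because no scaling between libraries is stated. A higher percentile means that more peaks of the library were weaker. Distances run from the start of the principal transcript to the summit, with plus signs downstream in the direction of transcription. A promoter OCR lies within 1 kb of a protein-coding transcript start, and all others are called distal.

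The sequences below are the 201 bases around the mean summit of the OCRs on which the results turn, from the RefSeq sequence of GRCm38.p6 (mm10), 5′ to 3′ on the strand of the C/EBP gene. Capitals mark exact matches, on either strand, to the GATA factor motif AGATAA, the ETS motif GGAAGT, the RUNX motif TGTGGT, the E-box CAGCTG, the C/EBP motif TTGCNNAA, the AP-1 motif TGANTCA or the CTCF core consensus. The first pair shows the Cebpa promoter at chr7:35119040-35119240 (+ strand), upstream of the start, beside the OCR 37.4 kb downstream at chr7:35156593-35156793 (+ strand).
Cebpa promoter: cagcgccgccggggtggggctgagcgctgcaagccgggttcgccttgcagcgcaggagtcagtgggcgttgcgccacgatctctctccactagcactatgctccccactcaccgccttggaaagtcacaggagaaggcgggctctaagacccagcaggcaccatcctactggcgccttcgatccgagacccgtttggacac
Cebpa +37.4 kb: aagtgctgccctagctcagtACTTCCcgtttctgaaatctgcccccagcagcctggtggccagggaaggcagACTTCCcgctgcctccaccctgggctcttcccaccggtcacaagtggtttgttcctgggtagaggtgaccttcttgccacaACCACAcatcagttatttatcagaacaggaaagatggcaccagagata

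The next pair shows the 2 strongest distal OCRs of all windows, both of the Cebpe window, at chr14:54705882-54706082 and chr14:54777921-54778121 (both - strand).
Cebpe +6.2 kb: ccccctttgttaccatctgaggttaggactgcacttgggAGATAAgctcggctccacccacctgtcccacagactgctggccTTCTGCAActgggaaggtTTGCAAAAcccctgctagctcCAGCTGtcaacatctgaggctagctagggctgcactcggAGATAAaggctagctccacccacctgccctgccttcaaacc
Cebpe -65.8 kb: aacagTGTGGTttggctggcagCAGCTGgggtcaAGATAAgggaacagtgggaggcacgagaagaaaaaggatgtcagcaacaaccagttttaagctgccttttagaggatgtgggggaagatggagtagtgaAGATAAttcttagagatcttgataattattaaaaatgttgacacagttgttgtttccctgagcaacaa

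The last pair shows the strongest distal OCR of the Cebpd window that all libraries held, at chr16:15877199-15877399, and an OCR that only 3 libraries held, at chr16:15984315-15984515 (both + strand).
Cebpd -10.0 kb: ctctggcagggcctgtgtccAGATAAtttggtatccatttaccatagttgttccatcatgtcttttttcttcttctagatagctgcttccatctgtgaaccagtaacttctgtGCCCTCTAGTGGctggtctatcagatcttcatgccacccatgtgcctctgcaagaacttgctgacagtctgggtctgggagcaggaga
Cebpd +97.1 kb: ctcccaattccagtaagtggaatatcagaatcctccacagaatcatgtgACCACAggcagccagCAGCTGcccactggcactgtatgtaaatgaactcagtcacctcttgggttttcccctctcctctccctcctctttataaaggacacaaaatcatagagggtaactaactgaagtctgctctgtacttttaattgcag

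The Cebpa +37.4 kb window held 2 ETS matches and 1 RUNX match, and the Cebpa promoter window held none of the 7 motifs. The windows at the distal OCRs +52.8 and -93.2 kb from the Cebpa start, not shown, also held none. The Cebpe +6.2 kb window held 2 GATA matches, 1 E-box and 2 C/EBP matches. The Cebpe -65.8 kb window held 2 GATA matches, 1 RUNX match and 1 E-box. The Cebpd -10.0 kb window held 1 GATA match and 1 CTCF core, and the Cebpd +97.1 kb window 1 RUNX match and 1 E-box. For comparison, windows of the same length at the 66979 OCRs found in all 7 libraries held a GATA match in 14.6%, ETS in 27.8%, RUNX in 26.8%, E-box in 14.6%, C/EBP in 7.08%, AP-1 in 11.1% and the CTCF core in 6.01%. Such a match describes letters of the sequence and is no evidence of a bound factor.

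Facts about the libraries bear on every value that follows. The lists held between 84593 and 132852 peaks, and the background of a library lay between 4.44 reads in HPC7-2 and 20.4 reads in HPC7-1. The name of each peak starts with the letters VD in 3 lists (HPC7-1, HPC7-2, HPC7-4) and EtOH in 4 lists (HPC7-5 to HPC7-8). No label or text read here explains these letters. They were not taken as conditions, and where a result follows them this is said. The labelled cell type was checked on its markers. Of 8 progenitor genes, 7 had a promoter OCR in all 7 libraries, among them Kit at the 96.0th percentile and Cd34 at the 93.5th, beside 52% of all protein-coding genes, and Gata2 had one in all 7 at a start other than that of its principal transcript. None of 3 T cell, 3 B cell and 3 skeletal muscle markers had a promoter peak in any library. Of 3 hepatocyte markers Apoa1 had one, in 1 library at its principal start and in 2 over all its starts, and of 3 neuronal and 3 fibroblast markers Snap25 and Col1a1 had one, in all 7.

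Around the C/EBP genes, OCRs were dense at Cebpe and Cebpb and sparser at the other 3 genes. The Cebpe window held 44 OCRs, the Cebpb window 38, the Cebpa window 18, the Cebpg window 17 and the Cebpd window 15. Cebpa and Cebpg are neighbours whose starts lie 62.7 kb apart, and 15 of these OCRs belong to both windows. Per 100 kb of window this came to 21.8 OCRs at Cebpe, 18.9 at Cebpb, 8.88 at Cebpa, 8.09 at Cebpg and 7.36 at Cebpd, against a median of 9.92 over 21951 protein-coding genes. Cebpe stood at the 87.8th percentile of these genes and Cebpb at the 81.1st, while Cebpa (45.9), Cebpg (42.7) and Cebpd (39.9) lay below the middle. With flanks of 50 kb Cebpa lay above it, at 54.9, and in single libraries it ranged from 42.2 to 53.9. The chromosome of Cebpe, chr14, had 0.756 times the OCRs per Mb of the median autosome, and those of the others between 0.874 and 1.06 times. The windows also differ in neighbours, since that of Cebpe takes in 8 other protein-coding genes and those of the other members 2 to 4.

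Counted in single libraries, HPC7-1 to HPC7-8, in the order of their numbers, had 110, 77, 74, 70, 72, 79 and 83 OCRs in the windows together (mean 80.7 ± 13.6, SD, n = 7). HPC7-1, with the highest background and the longest list, stood above the rest in number. As a share of its own peaks it did not. The windows took 0.0843% of the peaks of HPC7-1, and between 0.0765% (HPC7-8) and 0.0981% (HPC7-6) in the other libraries. Of the 117 OCRs, 57 (48.7%) were found in all 7 libraries, beside 46.2% of all OCRs, so the C/EBP windows lay near the background in this respect. Another 33 were found in 2 to 6 libraries and 27 in 1 library, of which 20 were in HPC7-1. In the whole data set 17.9% of the OCRs were found in 1 library. Full support was most frequent in the Cebpb window (55.3% of its OCRs) and least frequent in that of Cebpd (33.3%). The OCRs of all 7 libraries had a median percentile of 69.0, those of fewer libraries one of 15.6.

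**Figure D1:**
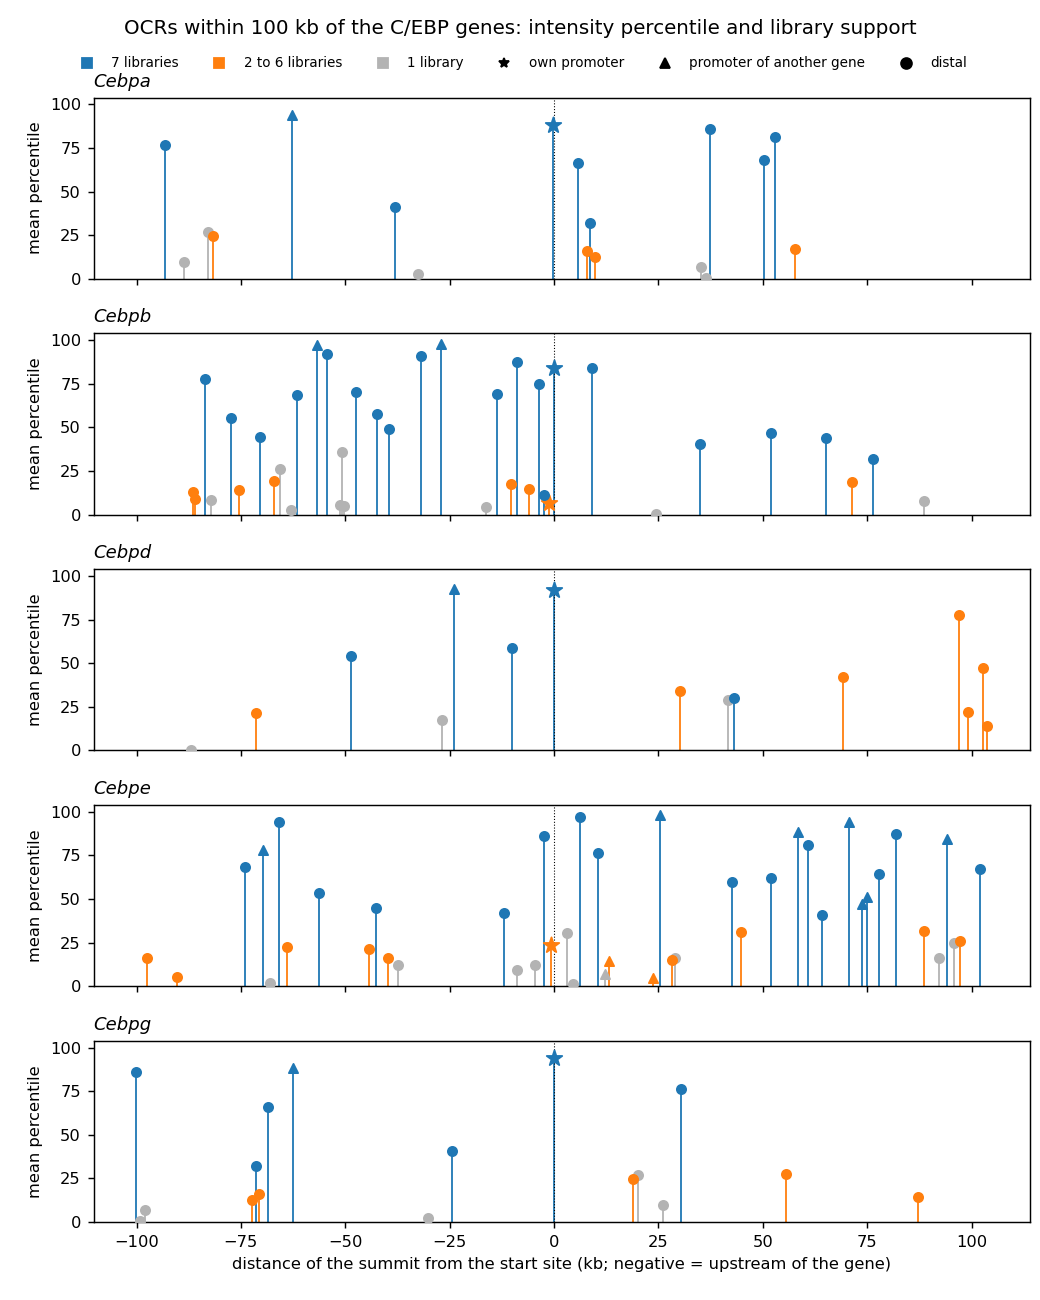
Each stem is an OCR, placed by the distance of its summit from the start site (kb) and as high as its mean intensity percentile over the libraries that have it. Stars mark promoters of the C/EBP gene itself, triangles promoters of other genes and circles distal OCRs, coloured by the number of libraries. The Cebpe promoter is low between high distal OCRs, and the OCR at +97.1 kb of Cebpd is the highest among those of fewer than 7 libraries.

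The promoters of 4 members were open in every library, and that of Cebpe was weak in 6 libraries and not listed in the other. By library, from HPC7-1 to HPC7-8 in the order above, the Cebpg promoter stood at percentiles of 95.7, 93.8, 95.0, 93.1, 92.8, 93.9 and 94.7 (mean 94.1 ± 1.02, SD, n = 7). The Cebpd promoter stood at 95.2, 90.0, 93.0, 91.2, 88.3, 92.9 and 92.3 (mean 91.8 ± 2.23). The Cebpa promoter stood at 90.9, 85.9, 88.6, 88.2, 85.3, 88.3 and 90.8 (mean 88.3 ± 2.14). These ranges overlap from gene to gene, but within each library the order was the same. The Cebpb promoter stood at 87.8, 82.9, 83.2, 80.1, 82.0, 84.3 and 87.1 (mean 83.9 ± 2.75). The Cebpe promoter stood at 43.4, 17.9, 0 (no peak listed, HPC7-4), 19.5, 11.3, 31.0 and 20.4 (mean 20.5 ± 13.8), below every value of the other 4 genes.

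In fold enrichment the same promoters reached 86.0 ± 15.5 at Cebpg, 69.2 ± 17.9 at Cebpd, 47.4 ± 10.1 at Cebpa and 30.6 ± 5.23 at Cebpb (SD, n = 7), and 3.93 ± 0.373 at Cebpe over the 6 libraries with a peak. Behind the Cebpa value were 200 to 1173 reads at the summit, and behind that of Cebpe 20 to 90. All 10 pairs of promoters differed in the same direction in 7 of 7 libraries (two-sided exact permutation of signs over libraries, p = 0.0156, the smallest that 128 sign patterns can give, Benjamini-Hochberg adjusted p = 0.0156 over 10 pairs). The closest neighbours were Cebpd and Cebpg, where Cebpd minus Cebpg was -2.29 ± 1.41 percentile points, then Cebpa minus Cebpd, with -3.57 ± 1.12, and Cebpa minus Cebpb, with 4.36 ± 1.80 (SD, n = 7). The Cebpb promoter lay above that of Cebpe by 63.4 ± 12.4 points. The size of all 4 differences from Cebpe depends on the width of a promoter. With 3 kb on either side, the Cebpe value takes in the OCR at -2.3 kb, and Cebpb minus Cebpe becomes -1.94 ± 1.79 points (exact permutation test, adjusted p = 0.0156). Cebpa minus Cebpe falls from 67.8 to 2.42 points and Cebpd minus Cebpe from 71.4 to 5.99, and Cebpe minus Cebpg goes from -73.7 to -8.28.

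Among protein-coding genes, 52% had a promoter OCR in 7 of 7 libraries, as 4 of the 5 members did, and the median percentile of these promoters was 93.5. Only Cebpg exceeded that median among the members. With genes that have no promoter peak counted at 0, Cebpg ranked at the 76.1st percentile of 21866 genes, Cebpd at the 69.1st, Cebpa at the 61.2nd, Cebpb at the 56.4th and Cebpe at the 47.2nd. The width of the promoter peak also differed, from 2857 to 4992 bp over the libraries at Cebpd, where the merged OCR spans the whole gene, 1620 to 1940 bp at Cebpa, 1193 to 1811 bp at Cebpb, 1795 to 2808 bp at Cebpg and 335 to 1460 bp at Cebpe. The genes with the closest promoter percentiles, by the mean absolute difference over 7 libraries, were Zkscan8 (0.261) and Pdcd2l (0.317) for Cebpa, Fgd1 (0.714) and Tmem185a (0.738) for Cebpb, and Cdc42ep4 (0.298) and Fxr1 (0.309) for Cebpg. For Cebpd they were Slc25a46 and B930094E09Rik (both 0.500), and for Cebpe, whose own values scattered most, Rab26 (5.09) and Csk (6.05).

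**Figure D2:**
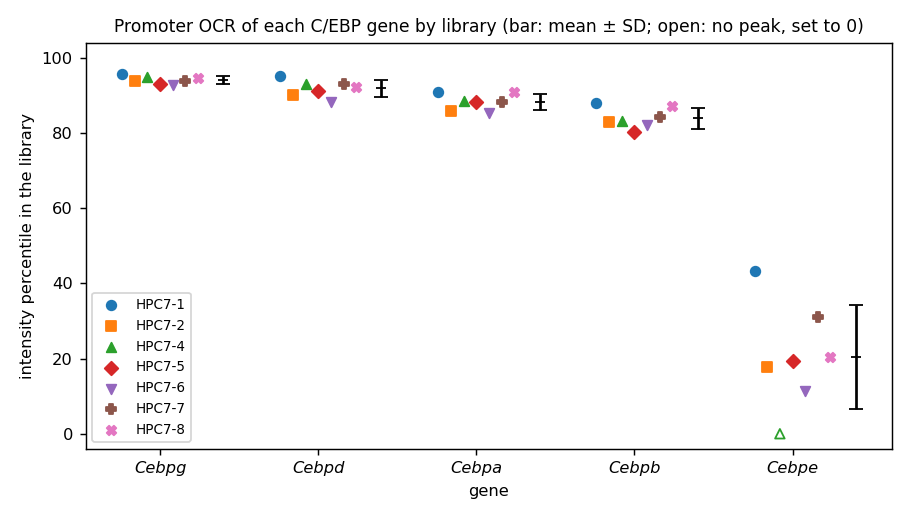
The intensity percentile of the promoter OCR (vertical axis) of each C/EBP gene in each library, with the mean ± SD over 7 libraries to the right of the points. Cebpg, Cebpd, Cebpa and Cebpb lie between 80.1 and 95.7, and Cebpe between 0 (open symbol, no peak) and 43.4.

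Cebpa had a strong distal OCR at the position of its known enhancer. The OCR at chr7:35155848-35157289, in intergenic DNA 37.4 kb downstream of Cebpa and 29.7 kb from the start of Slc7a10, stood at percentiles of 87.7, 85.0, 86.9, 83.1, 82.4, 87.0 and 89.6 (mean 86.0 ± 2.58, SD, n = 7) with a fold enrichment of 37.3 ± 7.80. It was the strongest of 7 distal OCRs of the Cebpa window found in every library. The Cebpa promoter exceeded it in 7 of 7 libraries, but by 2.33 ± 1.50 points only, between 0.906 and 5.08 (two-sided exact permutation of signs, p = 0.0156, n = 7). This difference is about as large as the SD of either OCR across libraries.

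Further OCRs of the Cebpa window lay on both sides. At +52.8 kb, 14.3 kb from the start of Slc7a10, the percentiles were 85.4, 79.6, 79.1, 79.2, 78.3, 81.9 and 84.6 (mean 81.1 ± 2.86, n = 7). At -93.2 kb, in an intron of the peptidase gene Pepd, they were 82.0, 71.6, 77.6, 76.1, 73.4, 75.7 and 78.9 (mean 76.5 ± 3.47). The distal OCRs of all 7 libraries ranged from 32.2 to 86.0 in mean percentile. For Cebpg, which is transcribed away from Cebpa, these are nearly the same regions, and the OCR at +37.4 kb of Cebpa reaches its window at -100.1 kb. Its other 2 leading distal OCRs were the one in Pepd, at +30.5 kb, and one 5.67 kb downstream of Cebpa, at -68.4 kb of Cebpg (mean 66.2 ± 7.03). Between the 2 genes only 1 distal OCR was found in every library, 24.5 kb upstream of Cebpg, with a mean percentile of 41.0 ± 8.91. Accessibility does not tell which of the neighbours an OCR acts on.

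At Cebpe the intensities were the other way round, with distal OCRs far above the promoter. The OCR 6.2 kb downstream of the Cebpe start, chr14:54705375-54707353 in intergenic DNA beyond the gene, stood at percentiles of 97.6, 96.5, 96.0, 96.8, 96.6, 97.0 and 97.5 (mean 96.8 ± 0.565, SD, n = 7). Its fold enrichment was 118 ± 20.2, against 3.93 ± 0.373 at the promoter. The promoter lay lower in 7 of 7 libraries, promoter minus distal OCR being -76.4 ± 13.4 points with a range from -96.0 to -54.2 (two-sided exact permutation of signs, p = 0.0156, n = 7). With 3 kb promoters, chosen after seeing the data, the difference was -11.0 ± 1.48 points (exact permutation p = 0.0156, n = 7). The +6.2 kb OCR had the highest mean percentile of all 43 distal OCRs found in every library, and its summit varied by 5.26 bp (SD) between libraries.

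A second strong OCR lay 65.8 kb upstream of Cebpe, at chr14:54776779-54778617 in an intron of the amino acid transporter gene Slc7a8 and 3.91 kb from its start. Its percentiles were 95.1, 94.3, 93.7, 93.1, 94.4, 93.9 and 93.7 (mean 94.0 ± 0.638, n = 7), again a narrow range. Another, at +82.0 kb and 4.83 kb from Psmb11, which codes for a proteasome subunit of the thymus, stood at 90.1, 84.0, 85.4, 89.9, 85.6, 87.3 and 89.7 (mean 87.4 ± 2.51). The OCR 2.3 kb upstream of Cebpe, named here after its values were seen, stood at 88.9, 83.5, 84.8, 85.9, 84.1, 86.1 and 87.7 (mean 85.9 ± 1.94). The weak promoter peak of Cebpe thus lies between this OCR and the one at +6.2 kb, both far above it in every library. In all, 15 of the 33 distal OCRs of the window were found in every library, 6 upstream and 9 downstream.

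**Figure D3:**
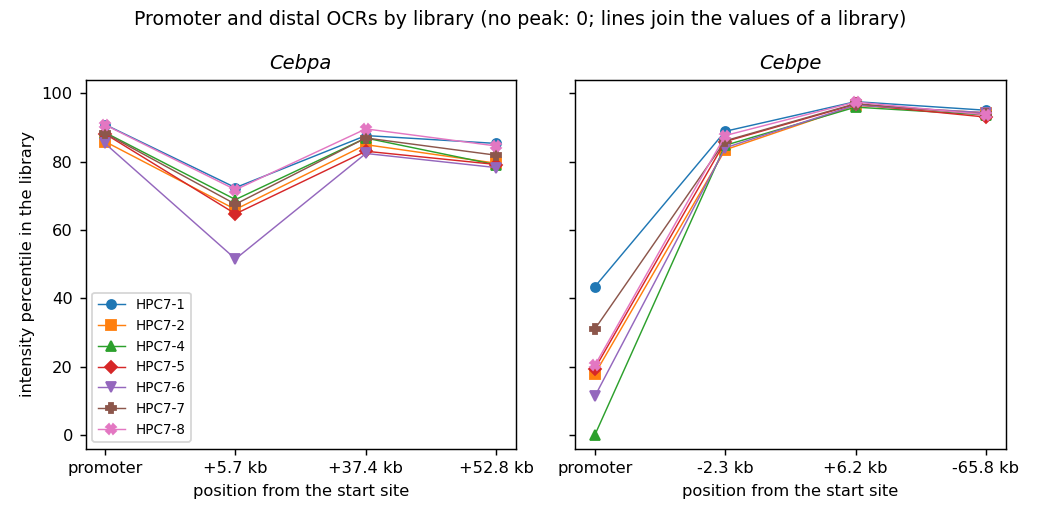
Intensity percentile (vertical axis) of the promoter and 3 distal OCRs of Cebpa (left) and Cebpe (right), with a line for each library. At Cebpa the promoter and the OCR at +37.4 kb are close in every library, whereas at Cebpe the promoter, with a mean of 20.5, lies far below all 3 distal OCRs.

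The Cebpb window was rich in OCRs upstream of the gene, where Tmem189 and Ube2v1 lie, with 13 of its 18 fully supported distal OCRs on that side. The strongest, at -54.3 kb and chr2:167633792-167635322, lay 2.49 kb from the start of Ube2v1, which codes for a ubiquitin-conjugating enzyme variant, and stood at 94.4, 91.4, 90.5, 92.1, 92.0, 90.1 and 92.6 (mean 91.9 ± 1.43, SD, n = 7). The OCR at -31.9 kb, in introns of Gm20431 and Tmem189, stood at 93.7, 90.6, 91.5, 90.6, 88.4, 91.0 and 91.2 (mean 91.0 ± 1.55). Both lie nearer to the starts of these neighbours than to that of Cebpb. At -8.8 kb, in an intron of Tmem189 and nearest to the Cebpb start, the percentiles were 90.5, 86.2, 87.0, 88.8, 85.0, 87.5 and 89.5 (mean 87.8 ± 1.93). On the downstream side the leading OCR, named after its values were seen, was at +9.1 kb in an intron of the non-coding gene A530013C23Rik (mean 84.3 ± 2.40, fold enrichment 31.8 ± 6.76). Its mean percentile lay within 1 SD of that of the Cebpb promoter.

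Cebpd had the promoter described above and 3 distal OCRs found in every library, none of them at a mean percentile of 75 or more. Elsewhere 3 of 7 reached it at Cebpa, 5 of 18 at Cebpb, 6 of 15 at Cebpe and 2 of 5 at Cebpg. Those of Cebpg are also in the Cebpa window. Over all windows the share was 32.6%, beside 37.1% of all OCRs found in every library, promoters included. With only 3 OCRs, nothing particular to Cebpd can be read from this. The OCR at -10.0 kb, in intergenic DNA, stood at 67.1, 56.7, 56.1, 58.1, 48.3, 58.5 and 67.7 (mean 58.9 ± 6.71, n = 7). At -48.6 kb, in an intron of the DNA repair kinase gene Prkdc, the mean was 54.2 ± 7.82, and at +43.0 kb, in an intron of Spidr, another gene of DNA repair, 30.0 ± 15.1 with a range from 4.54 to 54.0. The last value thus varied widely between libraries.

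A distal OCR of higher intensity in the Cebpd window was not found in every library. At +97.1 kb, chr16:15984144-15985222 in an intron of Spidr, HPC7-1, HPC7-2 and HPC7-4 had a peak with fold enrichments of 20.2, 18.0 and 18.0, from 430, 97 and 151 reads at the summit. Their percentiles were 81.6, 75.5 and 76.7 (mean 77.9 ± 3.22, SD, n = 3). HPC7-5, HPC7-6, HPC7-7 and HPC7-8 listed no peak there, although peaks with 13 to 14 reads at the summit were listed in those libraries. The 3 libraries with a peak are those whose peak names begin with VD, and the 4 without are those with EtOH. HPC7-2, which has the peak, has a shorter list than HPC7-5, HPC7-7 and HPC7-8 and the lowest background. The part of depth, and whether the names stand for a difference between the cultures, was not tested.

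Such an OCR was rare in the whole data set. Of 10171 OCRs found in exactly 3 libraries, 14 (0.138%) had a mean percentile of at least 75, a limit set after the values were seen. All 14 were found in HPC7-1, HPC7-2 and HPC7-4, 1 of 35 possible sets of 3 libraries, to which 454 of the 10171 OCRs belong. No OCR of 4 libraries reached this limit, and only 1 OCR was found in HPC7-5 to HPC7-8 alone. Next to it, the OCR at +99.1 kb was found in HPC7-1, HPC7-2, HPC7-4 and HPC7-7, at percentiles of 44.7, 7.38, 31.7 and 3.53, so that it was present in all 3 VD lists and in 1 EtOH list. The OCRs at +30.2 kb (mean 34.0 ± 19.3), +69.3 kb (mean 42.3 ± 11.2) and +102.8 kb (mean 47.4 ± 9.28) were found in 6 libraries and lacked a peak in HPC7-6, HPC7-5 and HPC7-6. Of all 10458 OCRs found in 6 libraries, 79.4% lacked an EtOH list, most of them HPC7-6, the shortest list (57.2%), so that such a lack is common. The OCR at +103.7 kb was found in HPC7-1, HPC7-4, HPC7-7 and HPC7-8 and did not follow the letters.

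The letters also separated values at 2 of the 57 OCRs of the windows found in all 7 libraries, both higher in the VD lists and both named after their values were seen. The OCR 76.5 kb downstream of Cebpb stood at 69.4, 42.4 and 45.5 in the VD lists and at 10.3, 11.3, 24.1 and 20.4 in the EtOH lists. The OCR 38.2 kb upstream of Cebpa, the one between Cebpa and Cebpg, stood at 52.5, 43.8 and 52.2 against 29.0, 36.5, 34.9 and 38.04. Of all OCRs found in 7 of 7 libraries, 1.64% lay higher in the VD lists without overlap and 0.0239% lower, and none of the 57 lay lower. With so few OCRs nothing particular to the C/EBP windows can be read from this.

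**Figure D4:**
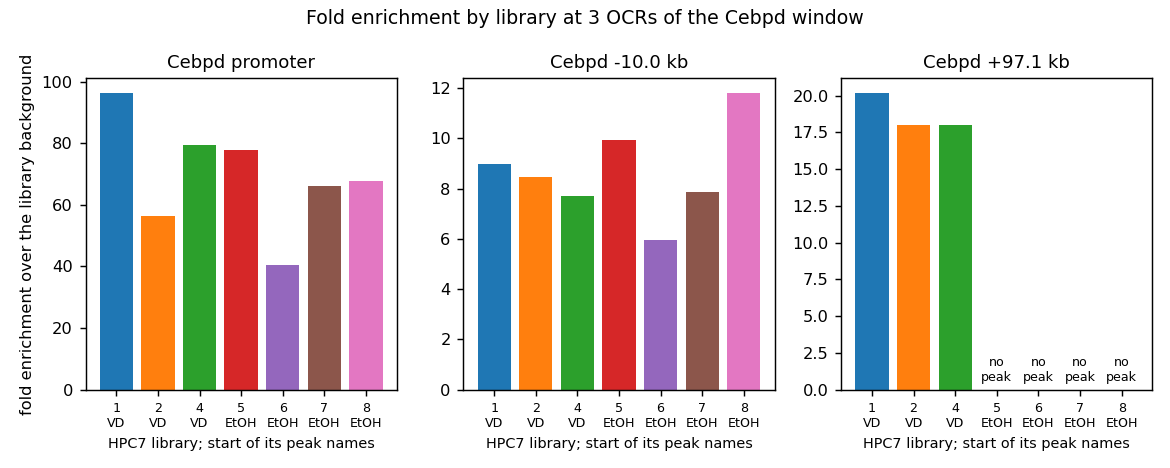
Fold enrichment over the library background (vertical axis, a separate scale in each panel starting at 0) in the 7 libraries at the Cebpd promoter and at -10.0 and +97.1 kb, with the start of the peak names under each library. The OCR at +97.1 kb has values of 18.0 to 20.2 in 3 libraries and no peak in the other 4, while the other OCRs have a peak in all 7.

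Over all windows the peaks at promoters, those of neighbouring genes included, were stronger than distal peaks. In the Cebpe window, 10 promoter OCRs belonged to other genes and 1 to Cebpe. No such comparison over the whole data set is given here, so nothing particular to these windows can be read from the result. The median percentile per library was 84.0 ± 4.12 for promoter peaks and 50.4 ± 3.89 for distal peaks, a difference of 33.7 ± 4.72 points with promoters higher in 7 of 7 libraries (two-sided exact permutation of signs, p = 0.0156, n = 7). Of 43 distal OCRs found in every library, 14 (32.6%) had a mean percentile of 75 or more, beside 37.1% of all OCRs found in every library, promoters included. By window these were 6 of 15 at Cebpe, 5 of 18 at Cebpb, 3 of 7 at Cebpa and 2 of 5 at Cebpg. At Cebpd it was 0 of 3, and OCRs shared by Cebpa and Cebpg are counted in both.

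The windows end at a fixed distance, so the OCRs nearest to their ends are given on both sides of them. At the Cebpa window the outermost OCRs inside were at -93.2 kb (mean percentile 76.5) and +57.8 kb (17.3), and the first outside at -118.3 kb (27.7) and +111.2 kb (15.7). For Cebpb those inside were at -86.6 kb (13.0) and +88.7 kb (7.89), and those outside at -110.2 kb (13.9) and +111.3 kb (11.7). For Cebpd they were at -87.0 kb (0.00753) and +103.7 kb (14.2) inside, and at -127.2 kb (33.3) and +115.9 kb (55.4) outside. Cebpe had OCRs at -97.4 kb (16.3) and +102.0 kb (67.1) inside, and at -105.8 kb (71.6) and +106.1 kb (82.3) outside. Cebpg had them at -100.1 kb (86.0) and +87.2 kb (14.6) inside, and at -113.0 kb (68.1) and +136.5 kb (27.9) outside.

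Genes linked to the C/EBP family were described by the OCR within 1 kb of their principal start. Of 13 other leucine zipper genes, 12 (92.3%) had a promoter OCR in all 7 libraries, beside the 52% of all protein-coding genes. Whether each of them pairs with a C/EBP protein was not tested. Dbp, a circadian factor, stood at the 99.6th percentile (± 0.126, SD, n = 7), and Atf5, a stress-response factor, at the 99.5th (± 0.150). Ddit3, the C/EBP homologous protein, stood at the 98.9th (± 0.453), and Atf4, the integrator of the stress response, at the 94.4th (± 1.37). Jun (98.8), Junb (98.5) and Tef (98.4) also lay above 93.5, the median of all promoters found in 7 of 7 libraries. Below it lay Fos (92.4), Nfil3 (90.7), Hlf (86.5), Batf (83.0) and Batf3 (75.5). Only Batf2 had no promoter peak in any library. The median percentile over the 13 genes was 94.4.

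Of 8 genes that regulate Cebpa or its protein, 6 had one in all 7 libraries, beside 52% of all protein-coding genes. Cbfb, the partner of the RUNX factors, stood at the 99.4th percentile (± 0.198), and Trib1 and Trib2, adaptors for the degradation of C/EBPα, at 96.3 (± 0.720) and 96.6 (± 0.896). Runx1 stood at 95.1 (± 6.29), and Spi1, which codes for PU.1, at 92.4 (± 1.52). The other two, Erg and Gata2, had no peak at the principal start but one in all 7 libraries at another of their starts, at mean percentiles of 88.5 and 88.0.

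Among 14 genes known as C/EBP targets in myeloid cells, 8 (57.1%) had a promoter OCR in all 7 libraries, a share near the 52% of all protein-coding genes. The median percentile over the 14 genes was 47.0. Among the 8 were the receptor genes Il6ra at the 89.7th percentile (± 1.95), Csf2ra at the 70.4th (± 4.97) and Csf1r at the 34.3rd (± 15.4), and 3 genes of primary granule proteins, Prtn3 at the 81.6th (± 8.15), Mpo at the 80.9th (± 4.93) and Elane at the 70.7th (± 12.8). Ctsg, which codes for cathepsin G of the same granules, had no promoter peak in any library, nor had Ltf, Camp and Ngp, which code for secondary granule proteins. Lcn2, also of secondary granules, had one in 1 library, and Csf3r, the G-CSF receptor gene, in 6 at the principal start and in all 7 over its starts (64.5 ± 6.73).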

How the data were processed

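Bulk ATAC-seq was done on 7 samples of HPC7 cells, which the labels put in 1 group. Trimming by the authors used Cutadapt, alignment to mm10 used BWA-mem, and MACS2 was run on every library for itself. The versions and options are not given in the sources used here. As deposited, a peak has a fold enrichment, which is a ratio of reads to background, its p and q as −log10, and a score made from the −log10 q. The authors pooled no replicates in these lists, and the lowest −log10 q was between 1.36 and 1.73. Alignments and total reads were not used here.

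Reads at the summit were recovered from the steps of the fold enrichment, (reads + 1) over (background + 1). In every library 100% of values were whole within 0.01 reads, and the median summit had 37 to 106 reads. Fold enrichments were turned into percentiles within a library, and a promoter or fixed position without a peak was set to 0. Peaks sharing 1 bp or more were merged. Genes and starts came from GENCODE M21, which names 21866 protein-coding genes with a principal start. Sequences were read from the RefSeq genome GRCm38.p6.

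Values were compared within libraries by an exact permutation of the signs of the 7 differences (two-sided, threshold 0.05), and 10 pairs of promoters were adjusted by Benjamini-Hochberg. The SD over libraries gives the spread between cultures of 1 line. The smallest p of this test means only that all 7 differences had the same sign, whatever their size or spread. The OCRs named were the promoter of each gene, those 36 to 38 kb downstream of Cebpa and 5 to 7 kb downstream of Cebpe, and the 3 distal OCRs of highest mean percentile per gene among those in 7 of 7 libraries. For likeness, 2 genes per member were named. The genes, lists and positions were chosen with earlier results of these data known. As alternatives, the lists were limited to a −log10 q of 5 or more or to equal numbers of peaks, merging required 50% overlap, flanks were 50 or 200 kb, promoters 3 kb, intensity was the log2 fold enrichment over the library median, and each library was left out in turn. The log2 values were computed here from the deposited ratios. The software was pandas 2.3.3 and numpy 2.4.6 in Python 3.11.15, with scipy 1.17.1 and matplotlib 3.10.9, and the functions were tested on simulated data, with bedtools 2.31.1 for the merging.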

Additional observations from a re-analysis of the deposited data

Results flagged for a closer look

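Of 24 measures compared across the 7 libraries (the named OCRs, the promoters and the OCR counts of the windows), 2 had a library far from the others by Dixon's test, where chance gives about 1 in 20. The OCR 5.67 kb downstream of Cebpa, at -68.4 kb of Cebpg, stood at a percentile of 51.6 in HPC7-6, and the next lowest was 64.8 in HPC7-5. HPC7-6 has the shortest list, with 84593 peaks. The windows together held 110 OCRs in HPC7-1, and the next highest count was 83 in HPC7-8. HPC7-1 has the longest list and the highest background. Of its peaks, 0.0843% lay in the windows, within the range of the other libraries (0.0765% to 0.0981%). The part of list length and depth in the 2 flagged values was not tested.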

How the results depend on the processing

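Of 237 values recomputed under the alternatives, 219 kept their direction and their side of the threshold, or stayed within the spread or 1.5 times of the count. Flanks of 50 kb gave 65 OCRs in all windows, 34 of them in every library, and flanks of 200 kb gave 204 and 105, by construction. With 50 kb flanks the rank of the OCR density among genes was 54.9 for Cebpa, which crosses the middle, 72.0 for Cebpb, 84.5 for Cebpe and 39.6 for Cebpg, and with a −log10 q of at least 5 it was 89.8 for Cebpe. With promoters of 3 kb, Cebpb minus Cebpe reversed to -1.94 points, because the Cebpe value then takes in the OCR at -2.3 kb. For the same reason Cebpa minus Cebpe shrank to 2.42, Cebpd minus Cebpe to 5.99 and Cebpe minus Cebpg to -8.28 points, and, in an alternative chosen after seeing the data, the Cebpe promoter minus the OCR at +6.2 kb to -11.0 points. In direction and side of the threshold, 109 of 110 values of the promoter pairs and all those of the comparisons between promoters and distal OCRs stayed as they were. For the pairs, and for a promoter against a single distal OCR, most of this was fixed in advance. Their differences had the same sign in every library, so leaving a library out could change neither direction nor side of the threshold. Log2 values and shorter lists keep the order of peaks within a library. Only the 3 kb promoters could have reversed a pair, and with them Cebpb minus Cebpe did reverse. Without 1 library, the windows held 101 to 117 OCRs, 57 to 63 of them in every remaining library, and the fewest without HPC7-1. The highest p was then 0.0313, the smallest that 6 libraries can give. No paired analysis was possible because all samples belong to 1 group, so that there is no second group to pair them with. The tests pair OCRs within a library. A region without a listed peak may still hold reads below the authors' limit, and the lowest fold enrichment listed was 1.68 in HPC7-1 and between 2.13 and 2.44 in the other libraries.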

Other observations

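The strongest OCRs of the windows belonged to promoters of genes beside the C/EBP genes. The shared promoter OCR of Acin1, which codes for a factor of chromatin condensation in apoptosis, and 1700123O20Rik, at +25.3 kb of Cebpe, stood at a mean percentile of 98.0 ± 0.758 (SD, n = 7). That of Gm20431 and Tmem189, at -27.2 kb of Cebpb, stood at 97.9 ± 0.425, and that of Ube2v1, at -56.8 kb of Cebpb, at 97.1 ± 0.513. By contrast, the Slc7a8 promoter, at -69.7 kb of Cebpe, stood at 78.0 ± 4.55, lower than the OCR in its intron at 94.0 ± 0.638. The promoter of Mzt2, a gene of the mitotic spindle at -23.9 kb of Cebpd, stood at 92.4 ± 1.46, beside 91.8 ± 2.23 at Cebpd itself.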
